A study of Mus musculus with 12 samples.

Results

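The cells described here were tumor cells with a mesenchymal expression profile from a pair of Brca1-deficient mammary tumors, MT1 and MT2. Both tumors grew in mice of the same design, MMTV-Cre; Brca1flox/flox of mixed C57BL/6 and 129/Sv strain, in which the MMTV promoter drives Cre in mammary epithelium and removes a floxed part of Brca1, and the labels name no other treatment and no age, sex or reproductive state. The ages that the study states for gland donors and for tumor onset in this design are not tied to these mice. Each tumor came from a separate mouse, and the fourth mammary glands of the same animals (MG1 and MG2) were also profiled. Cells were dissociated, depleted of blood and endothelial cells with an epithelial enrichment kit, and profiled by Drop-seq, in which a droplet joins 1 cell to 1 barcoded bead and each captured RNA carries a unique molecular identifier (UMI). Members were chosen by the UMI counts of single genes. A cell of MT1 was a member with 5 or more UMIs of Vim, which encodes the mesenchymal intermediate filament vimentin, 0 of the epithelial adhesion gene Epcam and 5 or more of Capza2. A cell of MT2 was a member with 5 or more UMIs of Vim and 0 of Epcam. On both sides a member had 0 UMIs of Ptprc, Tyrobp, Pecam1 and Cdh5, which mark immune and endothelial cells, and at most 2 over the fibroblast genes Dcn, Lum and Dpt together.

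The rule found 4991 cells among the 21157 of the series. MT1 gave 389 of its 7690 cells, or 5.06%, and MT2 gave 4602 of its 10314 cells, or 44.6%. The step on Dcn, Lum and Dpt alone took MT1 from 1010 to 431 cells and MT2 from 8714 to 4602. Of 129 MT1 cells with 10 or more UMIs over these genes, 22 had under 5 of Capza2, so cells like the members in Capza2 were cut as well. Matrix results below thus come from cells limited on these genes, by a count that deep cells exceed more easily. In MT1 the 5 libraries held 62, 12, 110, 116 and 89 members with summed depths of 39809 to 298941 UMIs. In MT2 the 3 libraries held 1078, 2414 and 1110 members with 4384570 to 6298906 UMIs. The second MT1 library, with 12 cells, was therefore the least precise of the 8. Of the MT1 cells that met the rule apart from Capza2, 431 in number, 9 had exactly 5 UMIs of Vim and 9 exactly 5 of Capza2, while 11 cells lay just outside at 4 of Vim and 11 just outside at 4 of Capza2. In MT2, 364 members had exactly 5 UMIs of Vim and 313 cells lay just outside at 4. Capza2 was not asked of MT2, where 289 members had 5 or more UMIs of it. Cell barcodes shared between any pair of these libraries numbered 0, so no member was counted under 2 libraries.

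Libraries of 1 tumor are repeat captures of 1 mass of tissue. A p-value below measures the spread between libraries, and tumor, mouse and capture cannot be told apart. Levels are CPM, the UMIs of a gene in the summed members of a library scaled to a common library total, given as mean ± SD over the 5 MT1 and 3 MT2 libraries unless a library is named. Differences are log2 fold changes of MT1 over MT2 with their standard error (SE), from edgeR's quasi-likelihood fit across all genes with Benjamini-Hochberg adjustment. Each tumor was also set beside the epithelial cells (Epcam 3 or more UMIs) of its own mouse's gland, as a description with no test. Tumor cells with 2 or more UMIs over Pecam1 and Cdh5, or over Ptprc and Tyrobp, are called endothelial and immune cells. In MT1 these 34 cells were endothelial by their markers, with Emcn at 1055 CPM and 0 UMIs of Lyz2, Laptm5 and Ctss. In MT2 the 143 cells were largely immune, with Lyz2 at 3934 CPM and Emcn at 103.

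Epithelial cells hold each other by cadherin and claudin junctions and carry a keratin cytoskeleton. In the epithelial-to-mesenchymal transition, transcription factors of the Snai, Zeb and Twist families repress junction genes, and cells gain vimentin, fibronectin and matrix-remodelling enzymes. The transition can stop part of the way, so that a cell holds genes of both programs, and mammary tumors with BRCA1 deficiency are known to include mesenchymal forms. The comparison asks which features the mesenchymal cells of separate tumors share and where they differ.

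Brca1, the gene deleted by design in all groups, stood at 5.45 ± 3.26 CPM in MT1 and 10.1 ± 2.73 in MT2 members, but 3' counts lie outside the floxed part and check nothing. The label was checked on genes that the rule did not use. Fn1, which encodes fibronectin, stood at 754 ± 201 CPM in MT1 and 2068 ± 137 in MT2 members, against 18.2 in the epithelial cells of MT1 and 55.9 and 37.3 in the epithelium of MG1 and MG2. Zeb2, a repressor of Cdh1, stood at 50.6 ± 3.91 and 135 ± 20.6 CPM against 1.57 in MT1 epithelial cells and 1.90 and 2.60 in the glands. Cdh1, the gene of E-cadherin, was at 14.6 ± 8.74 CPM in MT1 and 0.785 ± 0.736 in MT2 members, against 196 in the epithelial cells of MT1 and 389 and 501 in the glands. These 3 genes follow the mesenchymal label in both tumors. Cdh11, a mesenchymal cadherin, does not, with a single UMI in all MT1 members and 28 in MT2. Other mesenchymal markers did not follow it in both either, since Prrx1 and Twist1 were low in MT2 and Col1a1 in MT1, as given below. The epithelial keratins Krt8 and Krt18 were below the glands but stayed at 1047 ± 205 and 826 ± 158 CPM in MT1. In MT2 they stayed at 336 ± 18.7 and 491 ± 95.6. The rule's own genes are given as a description only. Vim stood at 8617 ± 1111 CPM in MT1 and 4107 ± 172 in MT2, and Capza2 at 10951 ± 1102 and 460 ± 31.5.

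Markers of other cell types were counted in full lists. The summed members held 935464 UMIs in MT1 and 15681223 in MT2. A marker at 0 in MT1 may thus be present at a level seen in MT2, and numbers of markers at 0 are not comparable. Of 12 endothelial markers, 6 were at 0 in MT1, among them Emcn and Kdr, and the list summed to 191 to 276 CPM in MT1 and 54.4 to 72.2 in MT2 libraries. Most of that sum was Ecscr, at 222 ± 43.2 and 52.5 ± 9.45 CPM, which the epithelial cells of MT1 also held at 107. Of 13 immune markers, 9 were at 0 in MT1 and 1 in MT2, and the list summed to 0 to 20.1 and 107 to 166 CPM. Most of the MT2 sum was S100a8, a calcium-binding protein gene of neutrophils, at 8.49 and 89.2 CPM as means (log2 fold change -3.44, edgeR adjusted p 2.63e-09), which the epithelium of MG2 held at 166. The pericyte and smooth muscle markers summed to 10.2 to 100.5 and 44.5 to 49.0 CPM and none was abundant enough for a test. Pdgfrb of this list gave 2 UMIs in MT1 and 442 in MT2, a pooled ratio of 13.2 (exact 95% counting interval 3.63 to 109), with libraries that overlapped. Rgs4, with 9 and 15 UMIs, had the opposite order at 12.8 and 0.918 CPM as means, with libraries that did not overlap. Cspg4 and Myh11, with 2 UMIs each in MT1, also had higher pooled levels there, at 2.14 CPM against 0.128 and 0.191 in MT2. The fibroblast markers summed to 450 to 628 CPM in MT1 and 459 to 481 in MT2, of which Gsn, an actin-severing gene that other cells use as well, made up 443 and 165 as means. Of these 14 markers, 4 were at 0 in MT1 (Pi16, Clec3b, Col14a1 and Htra3) and 0 of them in MT2. Of the 5 that could be tested, Gsn was higher in MT1 and 4 were higher in MT2, against 26.6% and 27.5% of all genes tested, and Pdgfra, C1s1 and Col15a1 passed the filter on low counts through MT2. In MT1 and MT2 these stood at 3.47 and 72.5 CPM for Pdgfra, 1.38 and 68.1 for C1s1, 2.84 and 63.9 for Col15a1, and 31.1 and 57.0 for C3. Median depth ran from 1777 to 2196.5 UMIs a cell in MT1 libraries and from 2259.5 to 4089 in MT2, and the mitochondrial share from 3.31% to 6.16% and from 4.56% to 8.35%. The part of these differences in the results was not tested, apart from the alternatives in depth and threshold of the closing section.

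After a filter on low counts 4870 genes were tested, and the tumors differed widely. At an adjusted p under 0.05, 2635 genes (54.1%) were called, 1295 (26.6%) higher in MT1 and 1340 (27.5%) higher in MT2. For 1940 genes (39.8%) the libraries of the tumors did not overlap, and the median log2 fold change over all genes was -0.03. A gene near 0 in 1 tumor could pass the filter only through the other, where it is high, so counts and medians over the tested members of a list are a description. Differences were moderate for most of them, since 1223 called genes differed by more than 2-fold, and by more than 2 on the log2 scale 156 genes were higher in MT1 and 213 in MT2. The states also had much in common. For 2319 genes (47.6%) the whole 95% interval of the difference lay inside 2-fold, and 395 of those were called as well. Another 311 genes were neither called nor inside 2-fold, so their differences were not resolved at this depth.

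The shared profile was read from genes at 100 CPM or more in both tumors whose interval lay inside 2-fold, 964 in number. Of these, 59 stood at least 2 log2 units above the gland epithelium in both mice, and 2 stood as far below it. Over all 4870 genes the same shares were 7.21% above and 0.76% below. In MT1 taken alone 15.8% of genes stood that far above its gland and 3.61% below, and in MT2 alone 11.1% and 2.96%. The members alone set the low-count filter and the 100 CPM limit, so genes of the gland that both tumors had lost could not enter. Krt19, at 1677 and 1605 CPM in the glands and 28.3 and 0.398 in MT1 and MT2 members, was not tested. Shares above and below the gland are therefore not comparable. The gland ratio chose the genes named next, so their distance from the gland is a description.

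Inhba, which encodes the subunit of activin A, a TGF-beta family ligand, led the shared genes. Its level was 966, 2010, 1208, 1205 and 1233 CPM in the MT1 libraries and 1794, 1556 and 1535 in the MT2 libraries, against 19.2 in MG1 and 19.6 in MG2 epithelium. The libraries of the tumors overlapped, and the log2 fold change was -0.45 (SE 0.16, 95% interval -0.78 to -0.12, edgeR adjusted p 0.0207). The call was lost without replicate 1 or 3 of MT1 or replicate 1 of MT2, at adjusted p 0.0531 to 0.0876 in edgeR. The epithelial cells of MT1 held 46.4 CPM of Inhba, so in that tumor the level belonged to the mesenchymal members. Vcan, the gene of the matrix proteoglycan versican, stood at 508, 1256, 559, 519 and 553 CPM in MT1 and 523, 435 and 406 in MT2, against 13.3 and 9.31 in the glands. Its log2 fold change was 0.33 (95% interval -0.04 to 0.69), with 1 high MT1 library, that of 12 cells.

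Several of the other genes named act in the matrix. Htra1, a secreted serine protease, stood at 461 ± 70.4 and 409 ± 56 CPM (7.61 and 11 in the glands), and the interval of its log2 fold change ran from -0.14 to 0.46. Pcolce2, an enhancer of procollagen processing, stood at 152 ± 37.8 and 163 ± 24.2 CPM (interval -0.43 to 0.30). Plod2, which hydroxylates collagen lysines for crosslinking, stood at 161 ± 53.1 and 122 ± 6.58 CPM (interval -0.22 to 0.52). For these 3 genes the libraries of the tumors overlapped and the edgeR test made no call. Col6a1, a collagen VI chain, stood at 211 ± 73.7 and 263 ± 23.4 CPM with a log2 fold change of -0.51 (edgeR adjusted p 0.0129), and without replicate 4 or 5 of MT1 the edgeR adjusted p was 0.0636 or 0.0637. Sparc, a collagen-binding matricellular protein, was at 850, 477, 810, 896 and 762 CPM in MT1 and 996, 1164 and 1131 in MT2, with a log2 fold change of -0.55 (SE 0.15, edgeR adjusted p 0.00272). Its MT1 libraries all lay below those of MT2, and both tumors stood above the 63.2 and 52.1 CPM of the glands. Without the Capza2 threshold the sign of Sparc turned, to 0.74 on the log2 scale.

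Further named genes act in the cytoskeleton, in transcription and in growth arrest. Zeb1, a repressor of epithelial genes, stood at 83.3, 100.5, 127, 96.0 and 102 CPM in MT1 and 124, 105 and 99.2 in MT2, against 8.29 and 1.59 in the glands. The libraries interleaved and the interval of the log2 fold change ran from -0.53 to 0.26. Fscn1, which bundles actin in filopodia, stood at 154 ± 35.0 and 162 ± 20.5 CPM (interval -0.58 to 0.15). Anln, which encodes the contractile ring protein anillin, stood at 239 ± 92.5 and 265 ± 69.1 CPM (interval -0.61 to 0.17). Cdkn2a, the locus of the cell cycle inhibitors p16 and p19ARF, stood at 388 ± 117 CPM in MT1 and 239 ± 27.9 in MT2, against 15.6 and 8.55 in the glands. Its log2 fold change was 0.58 (SE 0.17, edgeR adjusted p 0.00545), and its transcripts are not told apart by 3' counts. Of 21 alternatives 2 lost this call, and in 6 of 20 the interval was no longer inside 2-fold. Ccl2, a monocyte-attracting chemokine, stood at 715 ± 160 and 800 ± 193 CPM against 20.5 and 6.13 in the glands (interval -0.62 to 0.06).

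The last 3 of the 15 shared genes named by this rule were Me2, Ank and Fam162a. Me2, a mitochondrial malic enzyme, stood at 204 ± 38.9 and 171 ± 15.1 CPM (interval -0.18 to 0.49). Ank, a transmembrane regulator of pyrophosphate, stood at 139 ± 24.9 and 172 ± 20.1 CPM with a log2 fold change of -0.42 (edgeR adjusted p 0.0497), a call that 14 of 21 alternatives lost, among them all but 1 of those that left out a library, at edgeR adjusted p of 0.0513 to 0.186. Fam162a, a mitochondrial gene induced in hypoxia, stood at 230 ± 65.3 and 321 ± 40.5 CPM with a log2 fold change of -0.48 (edgeR adjusted p 0.0129), and with only cells at 0 UMIs of Dcn, Lum and Dpt its sign turned to 0.073.

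**Figure D1:**
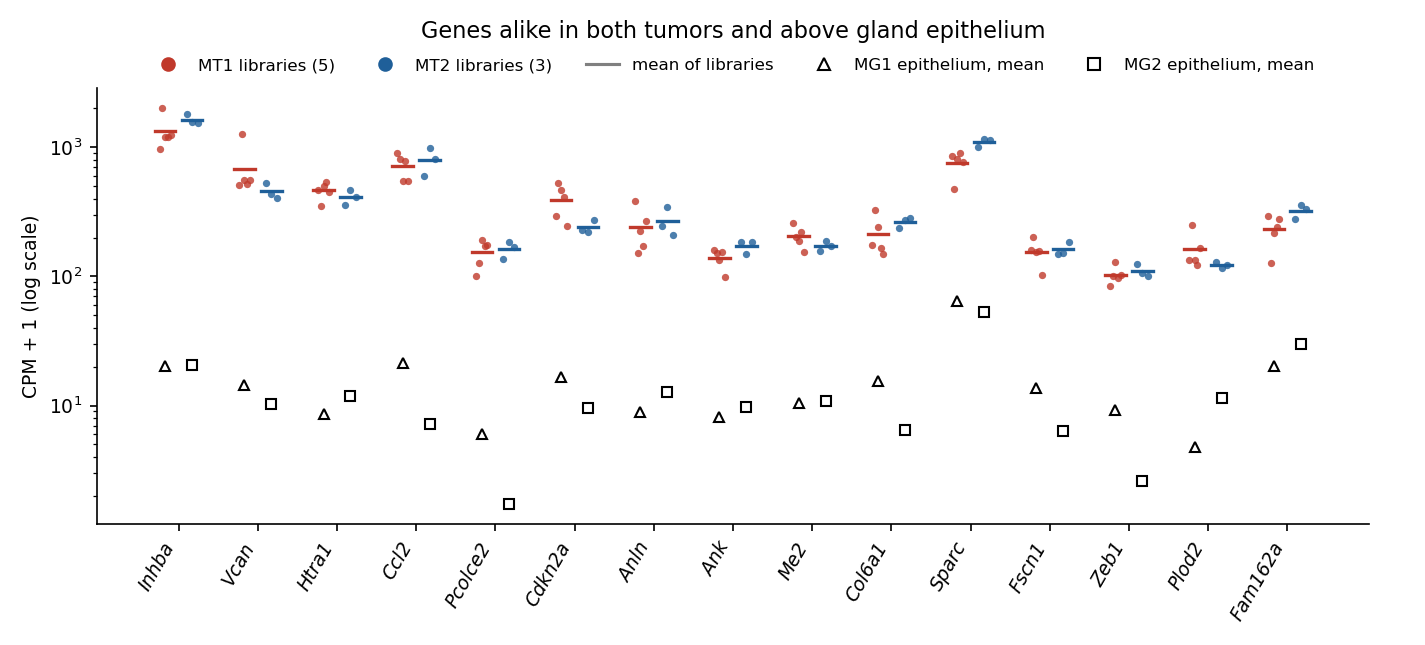
CPM + 1 on a log axis of the 15 genes that the tumors held at similar levels and above the gland, with 1 point for each MT1 and MT2 library, lines at the group means, and open symbols for the mean of each gland's epithelium. The tumor points lie at 83.3 CPM or more and the gland symbols at 63.2 or less, as for Inhba at 19.2 and 19.6 CPM.

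The pair of shared genes 2 log2 units below the gland in both mice, named after their values were seen, were Clu and Mfge8. Clu, which encodes the secreted chaperone clusterin, stood at 136 ± 58.4 CPM in MT1 and 117 ± 5.64 in MT2 against 1034 and 1144 in the glands, with an interval of -0.36 to 0.43. Mfge8, a milk fat globule protein, stood at 142 ± 37.7 and 104 ± 8.65 CPM against 717 and 1228. The endothelial and immune cells of MT1 and MT2 held 122 and 45.1 CPM of Clu and 199 and 121 of Mfge8, and the part of free RNA in the members' levels was not tested. Aff4, a scaffold of the transcription elongation complex, was next at 178 ± 39.0 and 165 ± 20.8 CPM against 712 and 706, and in the MT1 endothelial and immune cells it was at 352.

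The transcription factors of the transition were mixed. Of 17 tested, 6 were higher in MT1, 6 were higher in MT2 and 6 lay inside 2-fold, against 26.6%, 27.5% and 47.6% of all genes. On the MT2 side, Snai1 stood at 0, 0, 10.0, 14.2 and 5.12 CPM in MT1 and 44.0, 36.8 and 49.9 in MT2. The libraries did not overlap, and the log2 fold change was -2.42 (SE 0.42, edgeR adjusted p 1.43e-05). Zeb2 stood at 49.99, 50.2, 56.9, 49.8 and 46.1 CPM in MT1 and 159, 126 and 121 in MT2 (log2 fold change -1.48, SE 0.22, edgeR adjusted p 1.41e-06). Hmga2, an architectural factor that acts with Smads, stood at 193 ± 28.6 and 329 ± 39.7 CPM (log2 fold change -0.88, edgeR adjusted p 4.21e-05). Hmga2 was at 6.66 and 5.64 CPM in the glands, below every library of either tumor.

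On the MT1 side, Prrx1, a mesenchymal homeobox gene, stood at 100.0, 25.1, 76.9, 85.3 and 113 CPM in MT1 and 6.00, 6.67 and 5.47 in MT2. Its log2 fold change was 3.76 (SE 0.28, edgeR adjusted p 3.48e-13), and MT1 epithelial cells held 5.46 CPM. Its paralog Prrx2 stood at 72.2 ± 15 and 26.4 ± 2.36 CPM (log2 fold change 1.49, edgeR adjusted p 1.32e-06). Both homeobox genes thus leaned to MT1. Sox9, a factor of mammary progenitors, stood at 653 ± 250 and 138 ± 27.2 CPM (log2 fold change 2.01, edgeR adjusted p 1.84e-10), against 717 and 421 in the glands. Sox4 stood at 601 ± 95.4 and 226 ± 36.3 CPM (log2 fold change 1.35, edgeR adjusted p 1.78e-08), and MT1 epithelial cells held 1500. The paralogs Twist1 and Twist2 were too low to be tested. Twist1 gave 20 UMIs in MT1 and 5 in MT2, at 38.8 ± 49.1 and 0.329 ± 0.237 CPM, and Twist2 gave 4 and 294, at 4.67 ± 7.30 and 18.9 ± 1.42 CPM. Klf4 and Klf5, which are also active in epithelium, lay inside 2-fold, with intervals of -0.39 to 0.29 and of -0.50 to 0.25.

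Several epithelial genes were higher in the MT1 members. Of 14 keratins 5 were tested and all 5 were higher in MT1, and of 29 junction genes 7 were tested and 6 were higher there, against 26.6% of all genes. Krt7, Krt14, Krt16, F11r and Dsp stood at 0.734 to 3.45 CPM in MT2 and so passed the filter through MT1, whereas Krt10, at 9.36 CPM in MT1 and 17.4 in MT2, did not pass it. Krt8, a luminal keratin, stood at 1108, 1382, 927, 924 and 895 CPM in MT1 and 316, 341 and 352 in MT2, with a log2 fold change of 1.5 (SE 0.15, edgeR adjusted p 5.1e-10). Its partner Krt18 differed less, at 826 ± 158 and 491 ± 95.6 CPM (log2 fold change 0.61, 95% interval 0.30 to 0.93, edgeR adjusted p 0.00127). The Krt18 call was lost in 2 of 21 alternatives, and in 6 of 20 its interval was no longer inside 2-fold. The MT1 epithelial cells held 2840 CPM of Krt8 and 3264 of Krt18, and the endothelial and immune cells of MT1 183 of each, from 12 UMIs each. Both keratins in MT1 members thus lay between these classes. Krt14, a basal keratin, stood at 60.4 ± 24 and 2.23 ± 0.553 CPM (log2 fold change 4.61, edgeR adjusted p 3.86e-12). The 15.3 CPM in MT1 endothelial and immune cells is 1 UMI.

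Among junction genes, F11r, a tight junction adhesion molecule, stood at 125, 126, 100.4, 64.0 and 66.5 CPM in MT1 and 1.6, 0.794 and 1.82 in MT2 (log2 fold change 5.89, SE 0.36, edgeR adjusted p 3.42e-15). The MT1 endothelial and immune cells, which can use this gene themselves, held 199. Dsp, which encodes the desmosomal plaque protein desmoplakin, stood at 91.3 ± 41.0 and 1.98 ± 1.08 CPM (log2 fold change 5.32, edgeR adjusted p 4.36e-14). Tjp1, the gene of the junction scaffold ZO-1, was the 1 junction gene higher in MT2, at 22.2 ± 10.6 and 46.8 ± 3.18 CPM (log2 fold change -1.01, edgeR adjusted p 0.00553). Ehf, an epithelial ETS factor, stood at 58.3, 50.2, 56.9, 49.8 and 56.3 CPM in MT1 and 0, 0 and 0.912 in MT2 (log2 fold change 7.36, SE 0.54, edgeR adjusted p 4.17e-13). It was at 559 in MT1 epithelial cells and 30.6 in MT1 endothelial and immune cells.

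The same pattern was read per cell at equal depth. Each cell was thinned to 1000 UMIs and counted as positive with 1 or more UMIs over the keratin and junction lists. The share was 75.8%, 83.3%, 83.6%, 83.6% and 82.0% in the MT1 libraries and 49.1%, 58.7% and 53.7% in the MT2 libraries. The groups did not overlap, and the means of 81.7 ± 3.35% and 53.8 ± 4.84% differed by 27.8 percentage points (two-sided exact permutation test, p 0.0357, the smallest that 56 arrangements of 8 libraries can give). Free RNA can give such UMIs. In the endothelial and immune cells of the same tumors, which should lack keratins but can use F11r of the list themselves, so that their share is no measure of free RNA alone, it was 58.8% in MT1 (34 cells) and 38.5% in MT2 (143 cells). Median depth in these cells was 1507 and 2393 UMIs before thinning. The members of each tumor lay above these cells of the same tumor, and the part of free RNA in the difference of 27.8 percentage points was not tested. By markers these cells were endothelial in MT1 and largely immune in MT2, so their shares are not a like comparison between the tumors. Without thinning the shares were 95.6% and 83.6%.

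**Figure D2:**
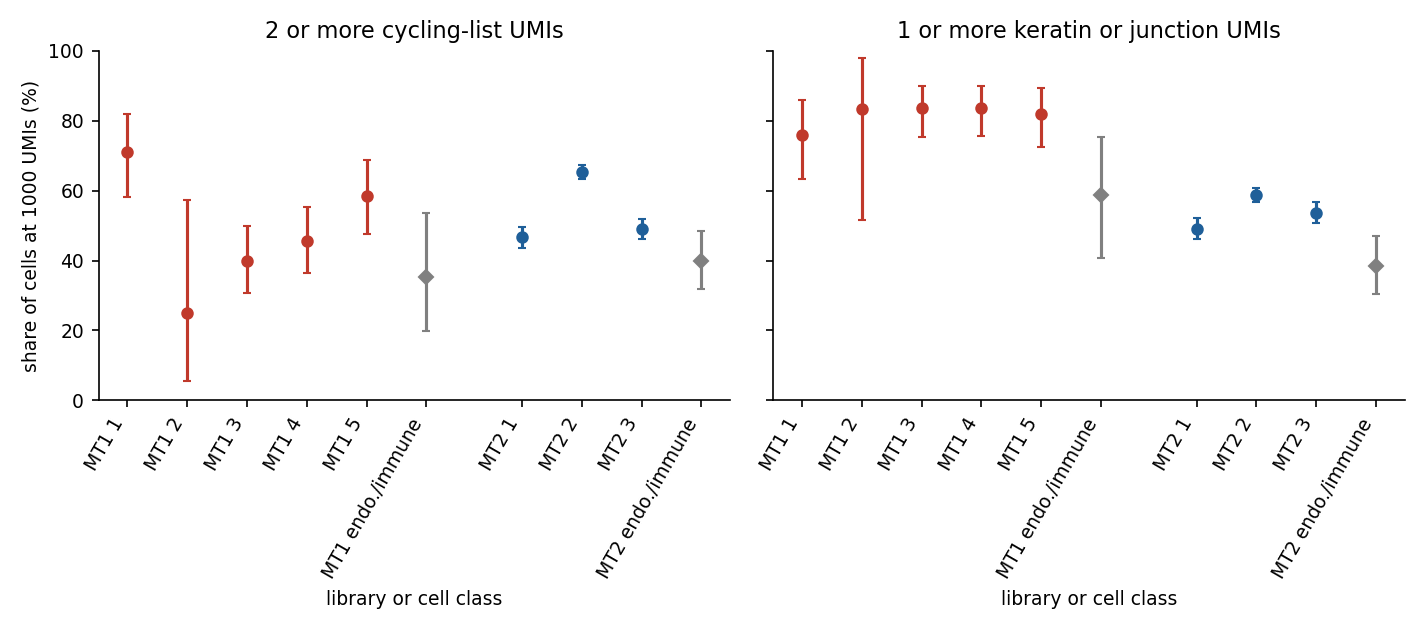
Percent of mesenchymal cells per library with 2 or more cycling UMIs (left) and with 1 or more keratin or junction UMIs (right) after thinning to 1000 UMIs, with grey diamonds for the endothelial and immune cells of each tumor and bars for exact 95% binomial intervals. MT1 libraries lie at 75.8% to 83.6% and MT2 libraries at 49.1% to 58.7% for the epithelial share, while the cycling shares overlap.

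Among mesenchymal cytoskeleton and adhesion genes, 12 of 18 were higher in MT1 and 3 in MT2, against 26.6% and 27.5% of all genes, with a median log2 fold change of 0.86. The largest difference on the MT1 side among these was in Nes, which encodes the intermediate filament nestin, at 400, 276, 371, 384 and 414 CPM in MT1 and 8.40, 8.73 and 10.7 in MT2. Its log2 fold change was 5.28 (SE 0.19, edgeR adjusted p 5.6e-21), and MT1 endothelial and immune cells held 504 CPM. Lgals1, the gene of galectin-1, stood at 6673 ± 1120 and 2653 ± 480 CPM (log2 fold change 1.26, edgeR adjusted p 2.23e-07), far above the 78.6 and 42.9 of the glands in both. S100a4, a calcium-binding protein of motile cells, stood at 200, 653, 174, 203 and 189 CPM in MT1 and 13.6, 12.9 and 16.6 in MT2 (log2 fold change 3.88, SE 0.26, edgeR adjusted p 3.61e-14). Msn, the membrane-actin linker moesin, stood at 1629 ± 191 and 768 ± 132 CPM (log2 fold change 0.99, edgeR adjusted p 1.89e-06). All 4 genes had libraries that did not overlap between the tumors. Cald1, an actin-binding regulator of contraction, went the other way at 1619 ± 239 and 2130 ± 142 CPM (log2 fold change -0.49, edgeR adjusted p 0.00599). Cd44, the hyaluronan receptor, was held alike at 991 ± 222 and 836 ± 83.8 CPM (95% interval -0.12 to 0.53), and so was the integrin subunit gene Itgb1 at 1941 ± 133 and 1715 ± 90.9 (interval -0.19 to 0.39).

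Itga6, the laminin receptor subunit of epithelial hemidesmosomes, was higher in MT1 at 121 ± 59.6 and 6.50 ± 1.13 CPM (log2 fold change 3.91, edgeR adjusted p 7.75e-14). Itgav, a subunit of fibronectin and vitronectin receptors, was higher in MT2 at 80.5 ± 31.8 and 153 ± 16.4 CPM (log2 fold change -0.82, edgeR adjusted p 0.000887). Over the 5 integrins tested, 2 were higher in MT1, 1 in MT2 and 2 lay inside 2-fold, against 26.6%, 27.5% and 47.6% of all genes.

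Caveolins and cavins coat the membrane pits called caveolae. Cav1 stood at 11356, 10475, 11307, 7801 and 16737 CPM in MT1 and 405, 570 and 496 in MT2, and Cav2 at 2018 ± 505 and 146 ± 7.36. Both lie beside Capza2 on chromosome 6 (GRCm38.p6, Cav1 at chr6:17306335-17341328 and Capza2 at chr6:17637010-17666972), and Capza2 chose the MT1 cells, so these 2 genes are described without a test. The same holds for Met, the hepatocyte growth factor receptor, at 2579 ± 188 and 143 ± 8.57 CPM, and for St7, at 743 ± 132 and 16.6 ± 2.24. The MT1 epithelial cells, which were also asked for Capza2, held Met at 2766 and St7 at 704 CPM but Cav1 at 226. Met and St7 were thus near the same level in both classes of MT1 cell, whereas Cav1 was not. On either side of this block the order turned, since Mdfic, Lsm8 and Fam3c stood lower in MT1, as for Fam3c at 118 ± 30.9 and 261 ± 20.3 CPM. Away from this block 3 cavins could be tested. Cavin2 was higher in MT1 at 753 ± 113 and 239 ± 13 CPM (log2 fold change 1.61, edgeR adjusted p 1.16e-10), Cavin3 at 239 ± 32.9 and 72.8 ± 17.6 (log2 fold change 1.67, edgeR adjusted p 1.82e-09), and Cavin1, the core coat gene, lay inside 2-fold at 183 ± 42.3 and 176 ± 23.2 (interval -0.34 to 0.39).

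Collagen genes were mostly higher in MT2. Of 17 tested, 14 were higher in MT2 and 2 in MT1, against 27.5% and 26.6% of all genes, with a median log2 fold change of -1.55. Col1a2, a collagen I chain, stood at 258, 25.1, 10.0, 203 and 20.5 CPM in MT1 and 2467, 2265 and 2504 in MT2. The MT1 libraries were uneven, yet every one lay below every MT2 library (log2 fold change -4.61, SE 0.34, edgeR adjusted p 3.88e-13). Col5a2, a fibrillar collagen V chain, stood at 58.3, 0, 3.35, 49.8 and 0 CPM in MT1 and 1156, 1073 and 1105 in MT2 (log2 fold change -5.63, SE 0.31, edgeR adjusted p 2.41e-16). The basement membrane gene Col4a1 stood at 166 ± 31.2 and 674 ± 46.5 CPM (log2 fold change -2.02, edgeR adjusted p 3.31e-12). Against this, Col4a5 was higher in MT1 at 52.8 ± 14.8 and 1.70 ± 0.850 CPM (log2 fold change 4.66, edgeR adjusted p 2.98e-11), and Col6a3 at 83.4 ± 16.9 and 14.1 ± 2.39 (log2 fold change 2.39, edgeR adjusted p 1.29e-09). Col1a1 stood at 20.8 ± 27.8 and 105 ± 27.2 CPM (log2 fold change -2.12, edgeR adjusted p 3.58e-05) and Col3a1 at 54.5 ± 70.6 and 170 ± 27.0 (log2 fold change -1.63, edgeR adjusted p 0.000412). Their signs depended on the choice of MT1 cells, for without the Capza2 threshold the log2 fold change was 0.71 for Col1a1 and 1.19 for Col3a1 (edgeR adjusted p 0.0127), after 42 further MT1 cells had entered.

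Matrix glycoproteins and crosslinkers leaned the same way, with 18 of 27 higher in MT2, 2 in MT1 and 8 inside 2-fold, against 27.5%, 26.6% and 47.6% of all genes. Spp1, the gene of osteopontin, stood at 1183, 1407, 826, 1401 and 834 CPM in MT1 and 2906, 4493 and 3801 in MT2 (log2 fold change -1.84, SE 0.17, edgeR adjusted p 1.24e-10). Fn1 stood at 650, 1080, 676, 804 and 563 CPM and 2065, 1932 and 2207 (log2 fold change -1.61, SE 0.16, edgeR adjusted p 3.19e-10). In both genes all libraries of MT2 exceeded those of MT1. Serpinh1, the collagen chaperone HSP47, stood at 27.3 ± 14.6 and 288 ± 43.0 CPM (log2 fold change -3.50, edgeR adjusted p 4.17e-13). Mgp, an inhibitor of mineralisation, stood at 0, 0, 3.35, 42.7 and 0 CPM in MT1 and 456, 458 and 531 in MT2 (log2 fold change -5.20, SE 0.34, edgeR adjusted p 2.03e-14), but at 0.45 without the Capza2 threshold. Tnc, a matricellular glycoprotein of wounds and tumors, stood at 192 ± 26.6 and 252 ± 11.4 CPM (log2 fold change -0.40, edgeR adjusted p 0.0306), and 0.077 without that threshold. Of 21 alternatives 12 lost this call, 5 of them by leaving out replicate 1, 3 or 5 of MT1 or replicate 1 or 3 of MT2, at edgeR adjusted p of 0.0511 to 0.0834. On the MT1 side were Loxl1, a lysyl oxidase that crosslinks elastin, at 42.6 ± 10.6 and 9.02 ± 0.501 CPM (log2 fold change 2.30, edgeR adjusted p 1.15e-07) and the laminin chain Lama4 at 74.7 ± 45.6 and 9.94 ± 1.17 (log2 fold change 2.42, edgeR adjusted p 7.2e-08).

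Of 15 metalloproteinase, plasminogen and inhibitor genes, 5 were higher in MT1 and 8 in MT2, against 26.6% and 27.5% of all genes. Mmp2, the gelatinase of stromal cells, stood at 8.33, 0, 0, 10.7 and 0 CPM in MT1 and 528, 555 and 571 in MT2, a log2 fold change of -7.07 (SE 0.34, edgeR adjusted p 7.23e-18). The other gelatinase, Mmp9, stood at 17.4 ± 12.9 and 84.8 ± 12.9 CPM (log2 fold change -2.0, edgeR adjusted p 1.4e-06), and the endothelial and immune cells of MT2 held it at 1335. Both gelatinases were thus on the MT2 side, together with the inhibitor Timp1 at 540 ± 159 and 1432 ± 193 CPM (log2 fold change -1.40, edgeR adjusted p 9.02e-09). The plasminogen activators were on the MT1 side. Plau, the urokinase gene, stood at 50.8 ± 20.5 and 10.3 ± 2.58 CPM (log2 fold change 2.34, edgeR adjusted p 1.3e-07), and Plat, the tissue activator, at 156 ± 55.3 and 51.7 ± 3.16 (log2 fold change 1.35, edgeR adjusted p 7.7e-07). Mmp14, which activates pro-MMP2 at the membrane, was inside 2-fold at 206 ± 86.2 and 161 ± 5.31 CPM (interval 0.04 to 0.76).

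Genes of the TGF-beta, BMP and activin pathway were higher in MT2 in 11 of 19 cases and in MT1 in 4, against 27.5% and 26.6% of all genes. The ligand Inhba was shared, as given above, but its extracellular antagonist was not. Fst, the gene of follistatin, which binds activin, stood at 25, 100.5, 43.5, 60.4 and 30.7 CPM in MT1 and 565, 448 and 524 in MT2 (log2 fold change -3.56, SE 0.22, edgeR adjusted p 5.51e-15). The BMP antagonist Grem1 stood at 0, 25.1, 20.1, 17.8 and 15.4 CPM in MT1 and 1040, 855 and 981 in MT2 (log2 fold change -5.98, SE 0.26, edgeR adjusted p 4.51e-19). Bmp2, a ligand that Grem1 binds, had the opposite order, at 66.7, 75.4, 73.6, 71.1 and 76.8 CPM in MT1 and 0.200, 0 and 0.684 in MT2 (log2 fold change 7.77, SE 0.46, edgeR adjusted p 2.22e-15). The libraries of the tumors did not overlap for any of these 3 genes, so in level MT1 held the BMP ligand and MT2 the antagonists. Id2, a target of BMP signalling, was higher in MT1 at 32.1 ± 15.7 and 6.72 ± 1.76 CPM (log2 fold change 2.15, edgeR adjusted p 3.71e-05). Smad7, the inhibitory Smad induced by TGF-beta, lay inside 2-fold at 153 ± 36.3 and 125 ± 24.3 CPM (interval -0.31 to 0.48). Ltbp1, which tethers latent TGF-beta, stood at 144 ± 22.5 and 202 ± 25.7 CPM (log2 fold change -0.62, edgeR adjusted p 0.0038).

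Of 18 growth factor receptor and ligand genes tested, 8 were higher in MT2 and 4 in MT1, against 27.5% and 26.6% of all genes. Pdgfra, a receptor of mesenchymal cells, stood at 3.47 ± 4.96 and 72.5 ± 4.56 CPM (log2 fold change -3.83, edgeR adjusted p 5.47e-09), and its ligand Pdgfa at 257 ± 104 and 412 ± 11 (log2 fold change -0.62, edgeR adjusted p 0.0025). Hgf, the ligand of Met, stood at 15.3 ± 10.3 and 78.4 ± 5.47 CPM (log2 fold change -2.37, edgeR adjusted p 3.19e-07). Axl, a receptor of mesenchymal tumor cells, stood at 59.5 ± 24 and 94.2 ± 9.14 CPM (log2 fold change -0.97, edgeR adjusted p 0.000774). Hbegf, an EGF receptor ligand, was at 768 ± 206 and 576 ± 17.3 CPM and Fgfr1 at 193 ± 35.5 and 158 ± 18.8, both inside 2-fold. Among IGF-binding proteins, Igfbp4 was higher in MT2 at 245 ± 59.4 and 847 ± 168 CPM (log2 fold change -1.91, edgeR adjusted p 1.34e-10). Igfbp7 was called in the same direction (log2 fold change -0.71, edgeR adjusted p 0.00132) but stood at 0.61 without the Capza2 threshold, and endothelial and immune cells of MT1 held it at 7091 CPM. Of 4 Wnt genes tested, the receptor gene Fzd1 gave 1 UMI in MT1 and 1315 in MT2, a pooled ratio of 78.4 (exact 95% counting interval 14.1 to 3101). The ligand Wnt7b was higher in MT1 at 83.4 ± 19.5 and 41.1 ± 7.75 CPM (log2 fold change 1.00, edgeR adjusted p 0.00066), a call that 2 of 20 alternatives lost.

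Among the genes tested, secreted inflammatory genes and antigen presentation mostly went in opposite directions. Of 25 chemokine and inflammatory genes, 19 were higher in MT2 and 4 in MT1, against 27.5% and 26.6% of all genes, with a median log2 fold change of -2.02, and 21 did not overlap, against 39.8% of all genes. Of 15 MHC class I and interferon genes, 10 were higher in MT1 and 2 in MT2, against 26.6% and 27.5%, with a median of 0.88. Il6, Il11 and Il33, near the floor in MT1, passed the low-count filter through MT2, and Ifit3, near the floor in MT2, through MT1. The counts, medians and non-overlaps of these lists are thus partly set by the filter and are a description. MHC class I molecules, made of a heavy chain and B2m, show peptides to cytotoxic T cells, and their promoters and those of many chemokines are known to bind NF-kB. The promoters of 3 genes of each group, chosen after their values were seen, are therefore shown, from RefSeq on GRCm38.p6, as the 300 bases from 250 before to 50 after the annotated start, 5′ to 3′ along the gene. They are H2-K1 (chr17:34000298-34000597, minus strand), H2-D1 (chr17:35262844-35263143, plus strand) and B2m (chr2:122147437-122147736, plus strand), which were higher in MT1. The chemokine genes Cxcl1 (chr5:90890995-90891294) and Cxcl2 (chr5:90903649-90903948) and the cytokine gene Il6 (chr5:30012864-30013163), all on the plus strand, were higher in MT2. Capitals mark matches on either strand to an NF-kB-type motif (GGG, 2 free bases, TT, 1 free base, CC) and to an interferon-response type motif (TTTC, 2 free bases, TTTC).
H2-K1: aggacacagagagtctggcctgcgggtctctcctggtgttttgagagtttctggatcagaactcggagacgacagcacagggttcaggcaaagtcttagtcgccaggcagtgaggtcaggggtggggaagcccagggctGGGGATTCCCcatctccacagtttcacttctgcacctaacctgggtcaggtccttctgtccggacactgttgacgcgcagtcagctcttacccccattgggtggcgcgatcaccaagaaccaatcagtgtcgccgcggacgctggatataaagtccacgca
H2-D1: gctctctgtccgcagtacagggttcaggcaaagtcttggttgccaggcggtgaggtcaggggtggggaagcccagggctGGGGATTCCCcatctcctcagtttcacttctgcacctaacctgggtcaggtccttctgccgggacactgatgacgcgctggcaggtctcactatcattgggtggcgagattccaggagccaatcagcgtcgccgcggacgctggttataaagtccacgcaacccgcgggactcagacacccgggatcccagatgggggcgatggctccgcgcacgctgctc
B2m: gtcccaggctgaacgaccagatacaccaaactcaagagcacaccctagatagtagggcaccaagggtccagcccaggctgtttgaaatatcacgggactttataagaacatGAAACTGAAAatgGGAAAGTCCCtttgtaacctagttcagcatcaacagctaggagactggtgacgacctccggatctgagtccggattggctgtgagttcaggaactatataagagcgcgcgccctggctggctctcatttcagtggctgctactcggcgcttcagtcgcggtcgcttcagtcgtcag
Cxcl1: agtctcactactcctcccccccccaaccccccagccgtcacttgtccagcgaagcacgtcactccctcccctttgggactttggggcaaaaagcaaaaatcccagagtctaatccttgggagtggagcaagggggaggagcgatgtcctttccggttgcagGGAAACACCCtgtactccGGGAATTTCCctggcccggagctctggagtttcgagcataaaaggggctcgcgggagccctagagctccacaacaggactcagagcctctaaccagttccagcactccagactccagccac
Cxcl2: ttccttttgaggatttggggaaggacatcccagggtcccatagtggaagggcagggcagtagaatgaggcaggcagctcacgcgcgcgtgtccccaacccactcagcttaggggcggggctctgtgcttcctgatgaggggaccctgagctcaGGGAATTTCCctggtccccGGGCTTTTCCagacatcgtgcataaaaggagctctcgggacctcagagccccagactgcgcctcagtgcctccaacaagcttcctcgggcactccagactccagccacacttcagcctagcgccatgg
Il6: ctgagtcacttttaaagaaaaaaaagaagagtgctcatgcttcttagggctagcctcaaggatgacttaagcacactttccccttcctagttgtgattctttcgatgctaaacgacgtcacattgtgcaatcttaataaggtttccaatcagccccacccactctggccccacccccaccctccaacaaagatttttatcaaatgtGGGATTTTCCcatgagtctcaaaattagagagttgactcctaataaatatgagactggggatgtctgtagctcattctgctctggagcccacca

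The promoters shown are among those that hold the NF-kB-type letters. The promoter of Ptgs2, which was also read, held neither motif in this window and is not shown. H2-K1 and H2-D1 held the same 10 bases, GGGGATTCCC, with the first base at -111 and -171 from the start. B2m held GGAAAGTCCC at -126 and the interferon-type match GAAACTGAAA at -139. Cxcl1 and Cxcl2 each held GGGAATTTCC, at -71 and -97, and a further match each, and Il6 held GGGATTTTCC at -44. Of 27025 promoters of this length, 4.71% held the first motif and 3.49% the second. Among the promoters found, the first was in 8 of 18 tested chemokine genes (44.4%) and in 5 of 14 tested MHC and interferon genes (35.7%), and the second in 2 of 18 and in 7 of 14. Over the whole lists, tested or not, the first was in 11 of 28 promoters (39.3%) and 5 of 24 (20.8%), and the second in 3 of 28 and 9 of 24. A match is a description of letters and not a bound site.

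Levels of the genes just shown were well apart. H2-K1 stood at 1683, 1758, 1877, 1486 and 2267 CPM in MT1 and 123, 157 and 139 in MT2 (log2 fold change 3.62, SE 0.17, edgeR adjusted p 9.09e-18). H2-D1 stood at 3300 ± 438 and 451 ± 59.1 CPM (log2 fold change 2.77, edgeR adjusted p 1.84e-15), and B2m at 7150 ± 917 and 1622 ± 241 (log2 fold change 2.05, edgeR adjusted p 5.13e-12). The epithelial cells of MT1 held 3454 CPM of H2-K1, above its mesenchymal members, and the epithelium of the glands held 1038 and 1335. MT2 members at 140 ± 17.3 CPM of H2-K1 were therefore below both the gland of their own mouse and the 344 CPM of the endothelial and immune cells of MT2. Interferon-stimulated genes were low in level and also on the MT1 side, as for Isg15 at 55.4 ± 42.3 and 5.43 ± 0.323 CPM (log2 fold change 2.97, edgeR adjusted p 4.41e-08) and Ifit3 with 39 UMIs against 3, a pooled ratio of 218 (exact 95% counting interval 69.3 to 1102). Not all members followed. The proteasome activator gene Psme1 was higher in MT2 at 68.3 ± 21.7 and 140 ± 4.98 CPM (log2 fold change -1.05, edgeR adjusted p 8.35e-05), Ly6e at 342 ± 94.5 and 1427 ± 178 (log2 fold change -2.19, edgeR adjusted p 6.68e-13), and Psme2 lay inside 2-fold (interval -0.58 to 0.09).

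Cxcl1, a neutrophil attractant, stood at 2641, 1331, 2238, 1991 and 2911 CPM in MT1 and 4237, 4974 and 5177 in MT2 (log2 fold change -1.16, SE 0.17, edgeR adjusted p 9.5e-07). Cxcl2, a close relative, stood at 675, 1080, 512, 491 and 578 CPM and 4038, 3803 and 4389 (log2 fold change -2.83, SE 0.17, edgeR adjusted p 4.04e-15). Cxcl5 stood at 25, 25.1, 33.5, 60.4 and 56.3 CPM and 882, 948 and 966 (log2 fold change -4.46, SE 0.21, edgeR adjusted p 4.24e-18). All 3 ligands of the receptor Cxcr2 were thus higher in every MT2 library. The cytokine genes Il6, Il11 and Il33 were near the floor in MT1. Il6 gave 3 UMIs in MT1 and 2114 in MT2, a pooled ratio of 42.0 (exact 95% counting interval 14.4 to 204). Il11 gave 2 and 1135, a ratio of 33.9 (9.35 to 280), and the alarmin Il33 gave 1 and 1195, a ratio of 71.3 (12.8 to 2818). The prostaglandin synthesis genes Ptgs2 and Ptges were also higher in MT2. Ptgs2, the inducible cyclooxygenase COX-2, stood at 542, 678, 401, 370 and 619 CPM in MT1 and 2182, 1629 and 2169 in MT2 (log2 fold change -2.10, SE 0.17, edgeR adjusted p 5.95e-12), against 3.94 and 15.3 in the glands, and Ptges at 127 ± 25.1 and 504 ± 15.4 (log2 fold change -2.02, edgeR adjusted p 1e-11).

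The interferon-induced chemokine Cxcl10 had the opposite order, at 208, 75.4, 110, 81.8 and 81.9 CPM in MT1 and 15.8, 3.97 and 8.21 in MT2 (log2 fold change 3.48, SE 0.35, edgeR adjusted p 5.28e-10). Nfkbia, an NF-kB target and inhibitor, was held nearly alike at 1703 ± 251 and 1224 ± 187 CPM (95% interval 0.08 to 0.70, edgeR adjusted p 0.0299), and without replicate 1 or 4 of MT1 or replicate 1 or 3 of MT2 the edgeR adjusted p was 0.0683 to 0.168. Cebpb, a factor that acts on acute-phase and cytokine promoters, was higher in MT2, at 117, 25.1, 30.1, 85.3 and 56.3 CPM in MT1 and 712, 710 and 985 in MT2 (log2 fold change -3.73, SE 0.23, edgeR adjusted p 5.12e-15). The glands held it at 376 and 603, so MT1 members lay below their own gland.

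**Figure D3:**
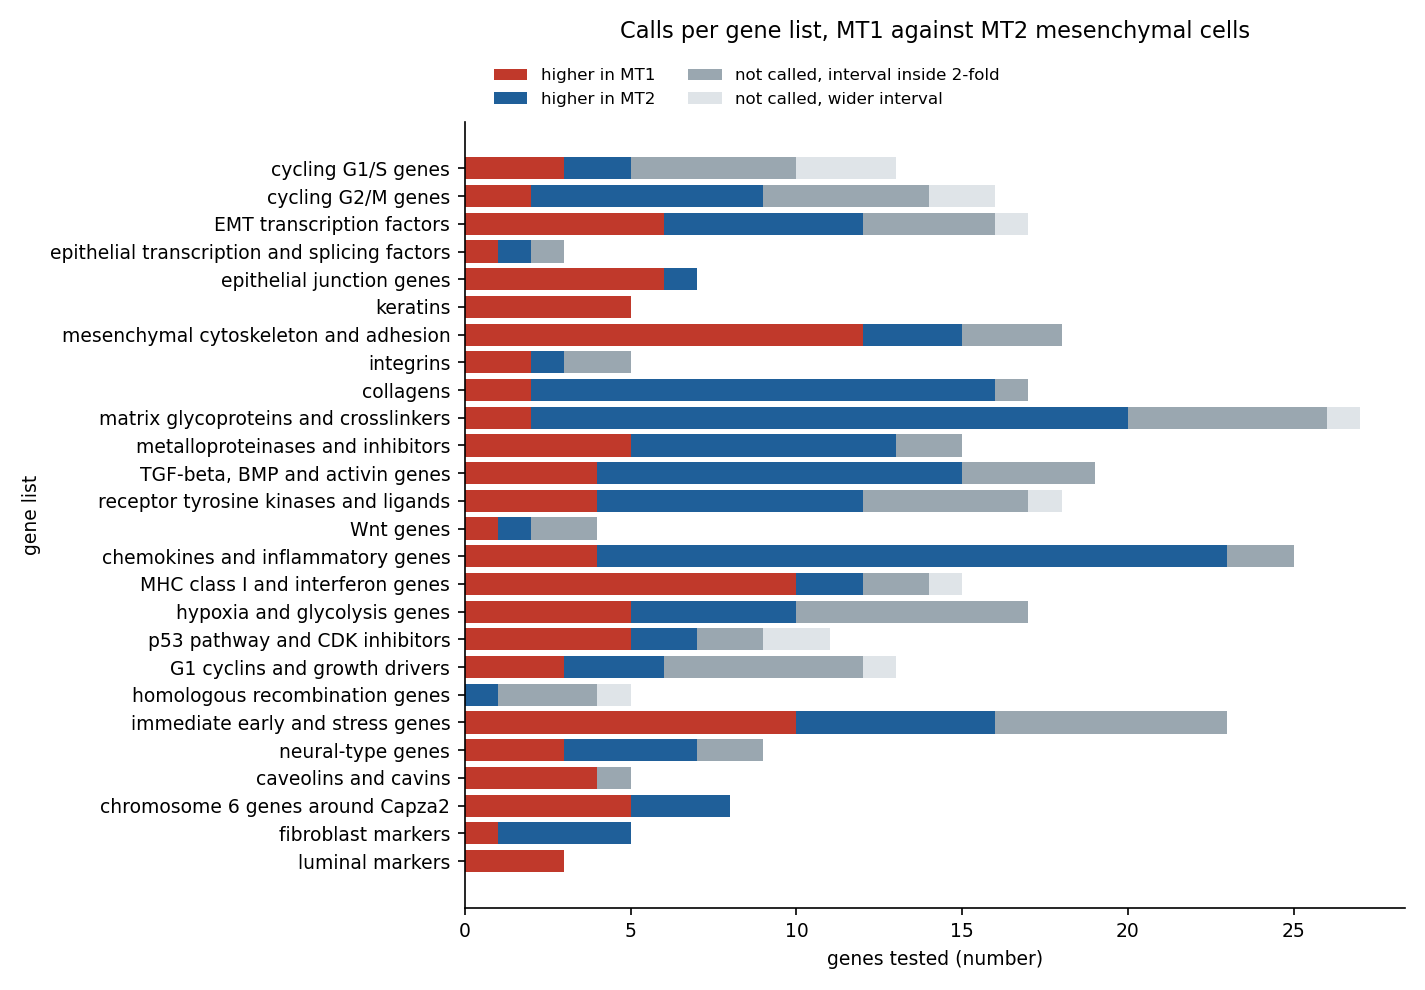
Number of tested genes in each list with 3 or more tested, as stacked bars of those called higher in MT1, called higher in MT2, not called with an interval inside 2-fold, and not called with a wider interval. Collagens (14 of 17) and chemokines (19 of 25) are mostly higher in MT2, and keratins (5 of 5) and junction genes (6 of 7) higher in MT1, while the bars of the caveolins and of the chromosome 6 genes count genes beside Capza2, which the rule favours.

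Cycling was compared at equal depth. A cell was counted with 2 or more UMIs over the G1/S and G2/M lists after thinning to 1000 UMIs. The share was 71.0%, 25%, 40.0%, 45.7% and 58.4% in the MT1 libraries and 46.7%, 65.4% and 49.0% in the MT2 libraries, and the groups overlapped. The means of 48.0 ± 17.6% and 53.7 ± 10.2% differed by -5.66 percentage points (two-sided exact permutation test, p 0.643). The share was 35.3% and 39.9% in the endothelial and immune cells of MT1 and MT2 and 32.2% in MT1 epithelial cells, and the part of free RNA in it was not tested. Without thinning the shares were 62.1% and 79.0% (exact permutation p 0.107), with the deeper libraries in MT2. Single genes did differ, and not in 1 direction. Of 16 G2/M genes 2 were higher in MT1 and 7 in MT2, and of 13 G1/S genes 3 and 2, against 26.6% and 27.5% of all genes. Mki67 stood at 190 ± 43.2 and 312 ± 55.0 CPM (log2 fold change -0.72, edgeR adjusted p 0.00071) and Top2a at 296 ± 133 and 566 ± 131 (log2 fold change -0.96, edgeR adjusted p 9.76e-05). Ube2c, an anaphase ubiquitin ligase gene, was higher in MT1 at 242 ± 131 and 120 ± 59.5 CPM (log2 fold change 1.06, edgeR adjusted p 0.000657). Both tumors lay above the glands, where Mki67 was at 12.4 and 28.4.

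Of 11 genes of the p53 pathway and CDK inhibitors, 5 were higher in MT1 and 2 in MT2, against 26.6% and 27.5% of all genes. Trp53 itself stood at 117, 126, 80.3, 74.7 and 107 CPM in MT1 and 10.0, 10.6 and 8.44 in MT2 (log2 fold change 3.16, SE 0.25, edgeR adjusted p 2.19e-12). MT2 members were also below the gland of their mouse at 56.6 CPM and below the endothelial and immune cells of MT2 at 57.4. Perp, a desmosomal p53 target, stood at 209 ± 59.9 and 9.72 ± 2.88 CPM (log2 fold change 4.36, edgeR adjusted p 1.36e-16). Cdkn1c, the imprinted inhibitor p57, gave 43 UMIs in MT1 and 1 in MT2, a pooled ratio of 721 (exact 95% counting interval 123 to 29124). Cdkn1a, the p53 target p21, differed less at 262 ± 42.1 and 179 ± 23.1 CPM (log2 fold change 0.51, edgeR adjusted p 0.00724, or 0.0713 without replicate 3 of MT2), and Gadd45a was higher in MT2 at 74.4 ± 25.8 and 147 ± 3.17 (log2 fold change -1.19, edgeR adjusted p 1.82e-05). Among cyclins, Ccnd1 was held alike at 376 ± 47.2 and 380 ± 10.5 CPM (interval -0.33 to 0.25). Ccnd2 was higher in MT2 at 4.27 ± 9.54 and 48.5 ± 5.30 CPM (log2 fold change -2.99, edgeR adjusted p 8.09e-06), and so was Cdk6 at 96.2 ± 13.6 and 183 ± 22.7 (log2 fold change -0.99, edgeR adjusted p 5.27e-05). Of 5 homologous recombination genes tested, 1 was called and 4 lay inside 2-fold, against 54.1% and 47.6% of all genes, among them Brca2 at 42.1 ± 17.4 and 47.1 ± 6.21 CPM, and Rbbp8, which starts end resection, was called at -0.49 (edgeR adjusted p 0.0200, or 0.0513 to 0.0808 without replicate 1, 3 or 5 of MT1 or replicate 1 of MT2).

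Metabolic and stress genes were mixed. Of 17 hypoxia and glycolysis genes, 5 were higher in each tumor and 7 lay inside 2-fold, against 26.6%, 27.5% and 47.6% of all genes. Pkm, the gene of pyruvate kinase, was higher in MT1 at 1666 ± 137 and 576 ± 45.3 CPM (log2 fold change 1.46, edgeR adjusted p 5.42e-10), and so was Ndrg1 at 522 ± 122 and 117 ± 8.84 (log2 fold change 2.16, edgeR adjusted p 4.68e-13). Bnip3, a mitophagy receptor, was higher in MT2 at 21.6 ± 14.0 and 68.6 ± 11.1 CPM (log2 fold change -1.49, edgeR adjusted p 9.21e-05). Ldha and Pgk1, of the same pathway, lay inside 2-fold, as for Ldha at 587 ± 116 and 491 ± 63.8 CPM. Of 23 immediate early and stress genes, 10 were higher in MT1 and 6 in MT2, against 26.6% and 27.5% of all genes. Jun stood at 405 ± 109 and 191 ± 21.5 CPM (log2 fold change 1.10, edgeR adjusted p 1.83e-06), and both tumors were below the glands at 1902 and 1325. Dusp1 was higher in MT2 at 147 ± 27.7 and 317 ± 42.4 CPM (log2 fold change -1.25, edgeR adjusted p 5.29e-07). The chaperone gene Hspa5 was held alike at 3619 ± 436 and 3334 ± 207 CPM (interval -0.26 to 0.35).

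Among 9 neural-type genes tested, 3 were higher in MT1 and 4 in MT2, against 26.6% and 27.5% of all genes. Ncam1, the neural cell adhesion molecule, stood at 95.9 ± 64.6 and 447 ± 68.8 CPM (log2 fold change -2.51, edgeR adjusted p 2.6e-11). Mdk, the growth factor midkine, stood at 8.33, 0, 3.35, 7.11 and 0 CPM in MT1 and 263, 226 and 268 in MT2 (log2 fold change -5.94, SE 0.36, edgeR adjusted p 2.59e-15). Nrp1 was higher in MT2 at 17.0 ± 7.33 and 110 ± 10.2 CPM (log2 fold change -2.77, edgeR adjusted p 1.51e-09), whereas its paralog Nrp2, also a semaphorin receptor, lay inside 2-fold at 192 ± 46.0 and 213 ± 13.9. Map1b, a microtubule-associated protein, was higher in MT1 at 551 ± 81.6 and 264 ± 42.6 CPM (log2 fold change 1.01, edgeR adjusted p 2.41e-06).

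The genes with the largest differences at 100 CPM or more were nearly absent on 1 side. Among the 12 highest in MT1, Prl2c3 led at 675, 176, 766, 924 and 466 CPM in MT1 and 0.400, 0.953 and 2.28 in MT2 (log2 fold change 9.02, SE 0.35, edgeR adjusted p 2.96e-20). It and Prl2c2, at 439 ± 176 and 6.21 ± 1.37 CPM, encode proliferins, placental relatives of prolactin. They are near-identical neighbours on chromosome 13, so their counts may be shared, and both were low in MT1 epithelial cells, at 27.6 and 12. H2-Q7, at 375 ± 65.6 and 2.57 ± 0.549 CPM, and H2-Q6, at 161 ± 65.2 and 0.691 ± 0.820, are non-classical class I genes with the same limit. The epithelial cells of MT1 held 934 CPM of H2-Q7 and 338 of H2-Q6, and the endothelial and immune cells of MT1 held 336 and 367.

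Tmsb4x, which encodes the actin-sequestering peptide thymosin beta-4, stood at 2091, 3416, 1810, 2311 and 2824 CPM in MT1 and 27.8, 23.5 and 38.5 in MT2 (log2 fold change 6.27, SE 0.23, edgeR adjusted p 1.13e-20). After thinning, 73.6% to 91.7% of MT1 members and 1.57% to 2.61% of MT2 members had a UMI of it. The endothelial and immune cells of MT2 had one in 93.0% of cells, at 4020 CPM, and those of MT1 stood at 5166. Jmjd1c, a histone demethylase family gene, behaved alike at 250, 377, 254, 281 and 230 CPM in MT1 and 1.40, 1.27 and 1.14 in MT2 (log2 fold change 7.55, SE 0.26, edgeR adjusted p 2.09e-21). The glands held it at 607 and 623 CPM and the endothelial and immune cells of MT1 and MT2 at 290.4 and 189. Reep3, an endoplasmic reticulum gene, stood at 138 ± 42.3 and 0.665 ± 0.611 CPM (log2 fold change 7.43, edgeR adjusted p 1.92e-17), with 229 in the endothelial and immune cells of MT1. It is the neighbour of Jmjd1c on chromosome 10, at chr10:67009189-67096988 beside chr10:67096351-67256326. The next tested genes on either side, named after their values were seen, were Hnrnph3 at 113 ± 45.5 and 23.4 ± 1.37 CPM and Arid5b at 115 ± 36.9 and 114 ± 5.25. Arid5b lay inside 2-fold.

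The remaining genes of this set were Man1a, a Golgi mannosidase, at 109 ± 7.92 and 1.23 ± 1.03 CPM, Flrt3, an adhesion and FGF-signalling protein, at 108 ± 23.7 and 1.62 ± 0.269, and Gng11, Wfdc18 and Igfbp5. The epithelial cells of MT1 held 54.4 CPM of Man1a and 35.3 of Flrt3, and the endothelial and immune cells of MT1 held 367 of Man1a. Gng11 stood at 157 ± 37.0 and 2.63 ± 1.00 CPM, with 3148 in MT1 endothelial and immune cells. Wfdc18 stood at 384 ± 187 and 1.98 ± 1.13 CPM, with 7680 in MT1 epithelial cells and 458 in MT1 endothelial and immune cells. Igfbp5 stood at 101 ± 19.9 and 1.95 ± 2.27 CPM, with 1261 and 443 in the same classes. In MT1 the members were thus below the endothelial and immune cells for Man1a, Gng11 and Igfbp5, as also for H2-Q6 and Tmsb4x. For Jmjd1c, Reep3 and Wfdc18 those cells gave 19, 15 and 30 UMIs, too few to fix the order. The part of free RNA in these levels was not tested.

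On the MT2 side, 6 of the 12 gave 0 UMIs in all 389 MT1 members. Kcnj15, a potassium channel gene, stood at 145, 154 and 141 CPM in MT2, at least 46.0-fold higher against a floor of 3 UMIs over the MT1 group. Emilin2, an elastic fibre glycoprotein, stood at 130 ± 4.72 CPM, at least 40.3-fold higher, and the matrix gene Thbs4 at 121 ± 8.10, at least 38.0-fold higher. Kcnj15 was also present in the gland epithelium, at 28.4 and 49.4 CPM, whereas Thbs4 was at 0 in both. Hhip, a hedgehog-binding inhibitor, stood at 116 ± 3.94 CPM (at least 36.1-fold), Nrn1, a neurite growth gene, at 106 ± 7.13 (at least 33.0-fold), and Nalcn, a sodium leak channel gene, at 105 ± 13.1 (at least 32.8-fold). For the other genes single UMIs set the MT1 value. Brinp3 gave 1 UMI against 3695, a pooled ratio of 220 (exact 95% counting interval 39.5 to 8709). The eosinophil chemokine Ccl11 gave 1 against 3354, a ratio of 200 (35.9 to 7905), and the acute-phase gene Saa3 gave 2 against 4709, a ratio of 140 (38.9 to 1160). G0s2, an inhibitor of lipolysis, gave a ratio of 116 (20.8 to 4595) and Rcn3, a calcium-binding protein of the secretory pathway, 104 (18.6 to 4097). Mmp2, given above, completed the set.

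**Figure D4:**
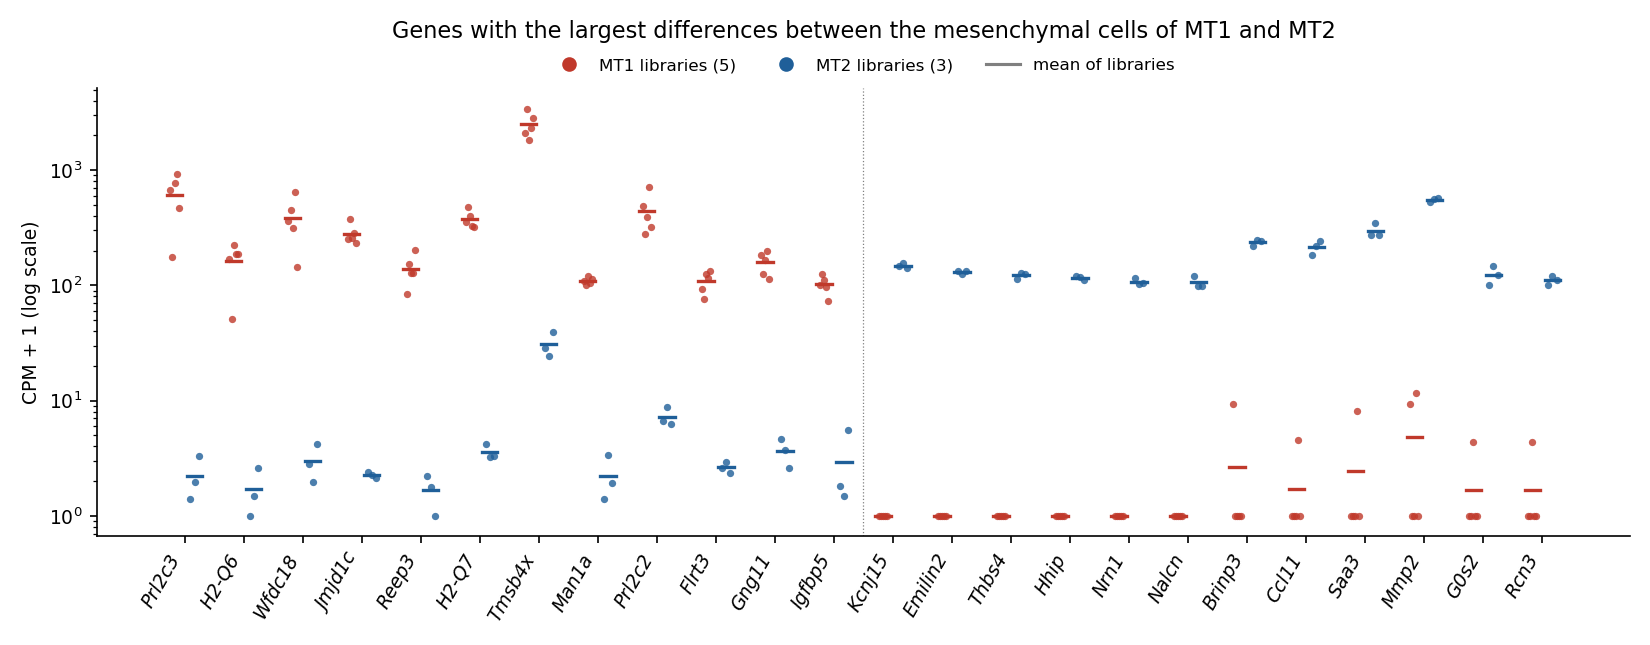
CPM + 1 on a log axis of the 12 genes highest in MT1 (left of the dotted line) and the 12 highest in MT2 by log2 fold change, with 1 point for each library and lines at the group means. For Prl2c3 the MT1 libraries lie at 176 to 924 CPM and the MT2 libraries at 0.400 to 2.28, and Kcnj15 has 0 UMIs in every MT1 library.

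Differences were not spread evenly over the genome. Position was known for 4849 of the tested genes from RefSeq on GRCm38.p6. On chromosome 13, 147 of 214 genes (68.7%) were higher in MT1 and 16 in MT2, with a median log2 fold change of 0.83. Chromosome 15 followed with 124 of 204 (60.8%) and a median of 0.67, and chromosomes 16 and 4 had medians of 0.59 and 0.50. On the other side, 132 of 229 genes of chromosome 6 (57.6%) were higher in MT2 and 29 in MT1, with a median of -0.69, although the genes around Capza2 lie there. Chromosomes 5, 2 and 1 had medians of -0.48, -0.43 and -0.37. These shares stand beside 26.6% and 27.5% over all genes, and genes of a chromosome are not independent, so they are given without a test.

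On chromosome 6, Sem1, a proteasome subunit gene, stood at 307 ± 33.6 CPM in MT1 and 891 ± 91.4 in MT2 (log2 fold change -1.58, edgeR adjusted p 1.45e-10), and Calu, the gene of calumenin, at 198 ± 28.6 and 694 ± 53.5 (log2 fold change -1.83, edgeR adjusted p 9.55e-12). Both were named after their values were seen and flank the Capza2 block, so the order turned within the chromosome. In windows of 7 consecutive tested genes, the highest medians on the MT1 side were at chr6:15720566-18854052 (3.69), from Mdfic to Lsm8 across the genes beside Capza2, which the rule favours, at the proliferin genes (chr13:9684836-13393644, 2.79) and at the class I genes (chr17:35263094-35838301, 2.77). On the MT2 side the median was -2.46 at chrX:163908454-164980505, -2.42 at chr2:167298444-168742370, which holds Snai1 and Cebpb, and -2.37 at chr5:5781529-16619439, which ends with Hgf. In each of these 3 windows all 7 genes were higher in MT2. Windows that overlap these shared their medians, and on chromosome X the 4 at -2.46 had 7, 7, 6 and 5 of 7 genes higher in MT2.

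**Figure D5:**
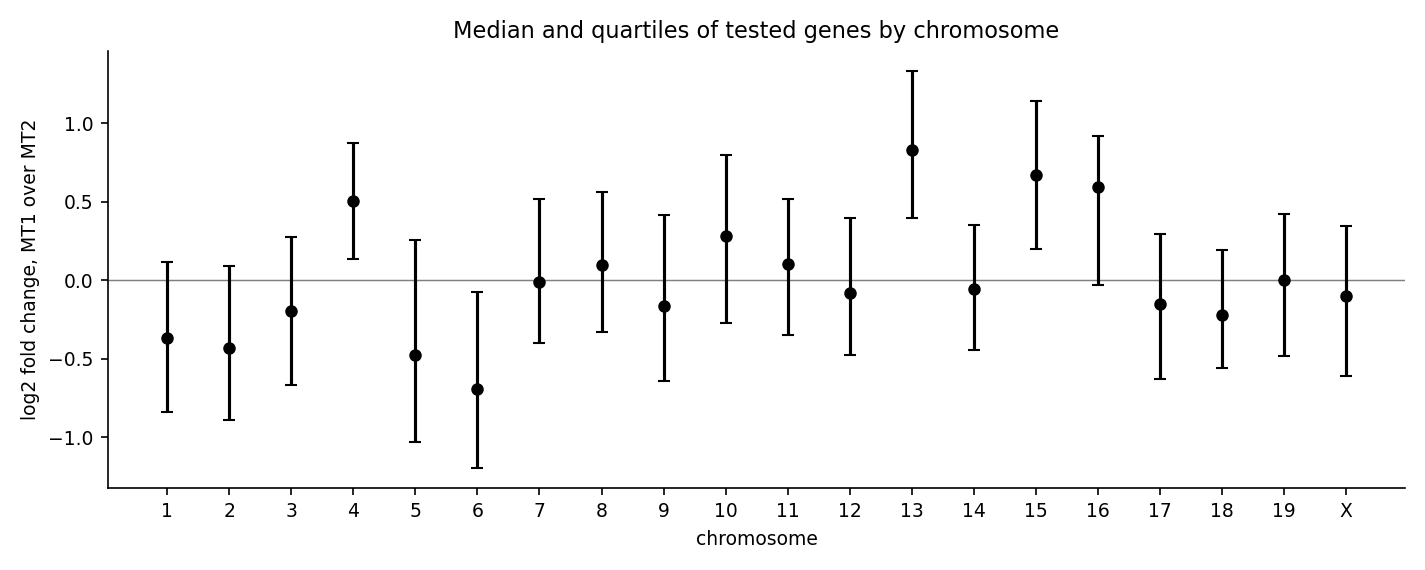
Median log2 fold change of MT1 over MT2 per chromosome (points) with bars from the lower to the upper quartile of its tested genes. Chromosome 13 has the highest median at 0.83 and chromosome 6 the lowest at -0.69.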

How the data were processed

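The authors aligned Drop-seq reads with STAR to GRCm38.p6, per the submitters' processing notes, and deposited 1 table of UMI counts without normalization, with 21743 genes and the 21157 cells that had passed their filters. The annotation, strand setting and treatment of paralogs are not given in the sources used here. Libraries came from GEO's labels and were numbered in accession order. Cells were chosen by the rule in the report with no doublet caller, and counts were summed per library. The genes of the rule stayed in library sizes and got no test. edgeR 4.0.16 (R 4.3.3; TMM, filterByExpr, glmQLFit, glmQLFTest, Benjamini-Hochberg, adjusted p under 0.05) was fitted to 5 MT1 and 3 MT2 libraries, with 95% intervals from the SE. Ratios to the gland used a pseudocount of 1 CPM. Counting intervals and floors (3 UMIs) are exact and cover counting error only. The fit was tested on simulated data with known changes, where 6.63% of calls were false. It found 78% of changes of 1 and 91% of changes of 2 on the log2 scale. DESeq2 1.42.0, RLE size factors, other thresholds, depths and left-out libraries were alternatives. Genes named were the 12 largest differences each way without overlap at 100 CPM, the 15 similar genes farthest above both glands, and examples of each list by level and size of difference. The members and lists were chosen with earlier results of these data known. Python 3.11.15 drew the figures. Some genes of the lists are not reported here.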

Additional observations from a re-analysis of the deposited data

Results flagged for a closer look

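Within the 5 MT1 libraries, 26 of 204 sets of values (12.7%) had 1 library far from the other 4, with a gap over 0.71 of the range. Chance gives about 5% for continuous values, which does not hold for counts near 0. The second MT1 library, of 12 cells, stood apart for Inhba (2010 CPM), Vcan (1256), Twist1 (126), S100a4 (653), Tpm2 (126), Itga6 (226), Plat (251) and Il6 (25.1) on the high side, and for Itgav (25.1), Pdgfa (75.4) and Pgk1 (100.5) on the low side. Without that library 2657 genes were called. The first library stood apart for Brinp3 (8.33 CPM), Cxcl10 (208) and Hnrnph3 (192), and for the lowest share of cells with an epithelial UMI (75.8%). The third stood apart for G0s2 (3.35 CPM), Rcn3 (3.35), Fzd1 (3.35) and Wnt7b (117). The fourth stood apart for Ccl11 (3.56 CPM), Saa3 (7.11), Mgp (42.7), Il11 (7.11), Il33 (3.56), Ccnd2 (21.3) and Cdh11 (3.56). For Brinp3, Ccl11, Saa3, G0s2, Rcn3, Fzd1, Il11, Il33, Ccnd2 and Cdh11 the other 4 libraries were at 0. Any count in 1 library then sets the flag. The value is 1 UMI for Brinp3, Ccl11, G0s2, Rcn3, Fzd1, Il33 and Cdh11.

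Cells outside the comparison also met the rule. In the glands, 33 of 2335 MG2 cells (1.41%) met the MT2 rule, 14 of them with 5 or more UMIs of Capza2, against 2 of 818 cells in MG1.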

How the results depend on the processing

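No paired analysis was possible because MT1 and MT2 came from separate mice and library numbers follow accession order. Called genes numbered 2570 with DESeq2 and 2641 with RLE factors. Without a low-count filter, 4307 were called, 1588 higher in MT1 and 2719 in MT2, so 36.9% of calls were on the MT1 side against 49.1%, and the median log2 fold change was -0.66. Counts fell by over 1.5 times with fewer cells or genes tested. With at most 1 cycling UMI, 1023 of 2211 genes were called (506 in MT1, 517 in MT2) and 872 lay inside 2-fold. With 0 UMIs of Dcn, Lum and Dpt, 1574 of 3251 were called (782 and 792) and 1489 lay inside. With MT2 sums thinned to the median MT1 total, an alternative chosen after seeing the data, 1639 of 3787 were called (774 and 865) and 1451 lay inside. Leaving out 1 library gave 2317 to 2856 calls and 1952 to 2378 genes inside. The difference in epithelial share was 25.5 to 30.3 points without 1 library, at p 0.0571 or 0.0952, the smallest possible there by the exact permutation test. The cycling difference ran from -11.4 to 0.18 without 1 library, and changed sign to 0.09 without MT1 replicate 2 and to 0.18 without MT2 replicate 2. Of 156 called genes named, 129 kept their call under all alternatives that tested them. Signs turned without the Capza2 threshold for Sparc (0.74), Col1a1 (0.71), Col3a1 (1.19), Mgp (0.45), Tnc (0.077) and Igfbp7 (0.61), and with 0 UMIs of Dcn, Lum and Dpt for Fam162a (0.073). Of 57 named genes inside 2-fold, 28 stayed inside under all alternatives. Depth limits MT1, where 3 UMIs over the group are 3.21 CPM.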
